A study of Homo sapiens with 6 samples.

Results

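Autophagy and lysosome genes were followed in MDA-MB-468 cells exposed to a nitric oxide donor. The set holds 47 genes, listed by gene name, out of 45019 rows in each file. They encode the kinase and lipid kinase complexes that start an autophagosome, the proteins that supply its membrane, the conjugation enzymes, the ATG8 proteins, cargo receptors, the MiT/TFE transcription factors, lysosomal membrane proteins, lysosomal hydrolases, proton pump subunits and the Rag GTPase branch of nutrient sensing. Another 145 autophagy and lysosome genes, sorted into the same roles, were read beside them.

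Both groups were cells of the established human breast cancer line MDA-MB-468, classed as basal-like and triple-negative and known for an amplified EGFR gene, so all libraries share 1 genetic background. The DETA/NO group was given 100 µM DETA/NO, which breaks down slowly in medium and releases nitric oxide, during 10 days. The untreated group is labelled untreated at the same day and grew in the same serum-containing medium with penicillin and streptomycin. Per the labels' protocols, cells adhered for 4 h before the donor was added, and every 48 h they were trypsinised, pooled within a replicate, counted and seeded again. The series asks whether a block of FTO, an RNA demethylase, by nitric oxide goes with changes in transcript levels. Each group has 3 labelled samples, but DETA/NO replicates 1 and 2 carry identical values in every row. They therefore entered once, as DETA/NO library 1 and 2, beside DETA/NO library 3. All values below rest on n = 2 DETA/NO and n = 3 untreated libraries, and, since the labels do not state separate cultures, the p-values measure the spread between these libraries only.

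The files give normalized reads per gene, and whole reads could be recovered from them: 28897422 and 34210950 in the DETA/NO libraries and 32872785 to 34637343 in the untreated libraries. Across genes, log2 values of libraries correlated at 0.9956 to 0.9958 (Pearson) inside a group and at 0.985 to 0.987 between groups. The line's own markers were high in every library, with 13388 to 13708 normalized reads of EPCAM in DETA/NO libraries and 12806 to 13135 in untreated libraries, and the EGFR values were 245830 to 247990 in DETA/NO libraries and 217560 to 226490 in untreated libraries. EGFR was called higher and EPCAM did not pass. Of the line's other listed markers, KRT5 was called higher, CDH1, KRT8 and KRT18 did not pass, and KRT19 was called lower (30878 to 33762 against 34992 to 38254). PGR stayed under 10 normalized reads, while ESR1 had 925 to 1093 in DETA/NO libraries and 823 to 846 in untreated libraries, and was called higher. ERBB2 was called lower, with 1429 to 1529 in DETA/NO libraries and 1830 to 1982 in untreated libraries. Of 7 fibroblast markers 5 stayed under 10 normalized reads in every library. The list summed to 845.1 to 851 in DETA/NO libraries and 592 to 642 in untreated libraries. Nearly all of it was COL1A1, which was called higher. Of 8 immune markers 5 stayed under 10, CD68 and TYROBP were at 0, and the list, mostly CSF1R and CD14, summed to 2996 to 3057 in DETA/NO libraries and 3172 to 3280 in untreated libraries. That sum holds opposite changes. CD14 was called lower, with 390 to 456 in DETA/NO libraries and 909 to 963 in untreated libraries. CSF1R (2568 to 2571 against 2248 to 2307) and PTPRC (33 to 34 against 8.8 to 17) were called higher. The 5 endothelial markers were all detected and summed to 522 to 577 in DETA/NO libraries and 332 to 368 in untreated libraries. CDH5 (144 to 202 against 73 to 76), KDR (244 to 268 against 153 to 191) and TEK (19 to 23 against 3.9 to 6.7) were called higher. PECAM1 and VWF did not pass. The part of these markers in the results was not tested.

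Autophagy encloses cytoplasm, protein aggregates or organelles in a closed membrane and hands them to the lysosome. The ULK kinase complex and a class III PI3-kinase complex start the membrane, ATG9 and ATG2 proteins feed it with lipid, and a ubiquitin-like conjugation system attaches ATG8 proteins such as LC3B to it, where cargo receptors bind. The lysosome, acidified by the V-ATPase and filled with hydrolases, breaks the content down and is also the platform on which Rag GTPases recruit mTORC1 when amino acids are plentiful. The MiT/TFE factors TFEB, TFE3 and MITF bind a short palindrome, the CLEAR element, near the start of many of these genes, and mTORC1 holds TFEB and TFE3 in the cytoplasm in fed cells.

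The promoter windows of the set were read for that palindrome, since the factors that bind it are themselves members. RefSeq promoter windows (GRCh38.p14, 250 bases before to 50 after the gene start, 300 in all) matched 40 of the 47 genes, with 51 windows in all, since 8 genes have several starts. A gene counts as holding a motif when at least 1 of its windows does. The CLEAR core TCACGTGA, searched on both strands, was found in the windows of 5 of these 40 genes (12.5%), of 7 of 111 other pathway genes (6.31%), of 219 of 10996 genes tested (1.99%) and of 321 of all 27305 genes in the table (1.18%). Those 5 windows are printed 5′ to 3′ on the gene's own strand, because they show where the palindrome lies in genes that rose with DETA/NO and in genes that did not pass the test. Capitals mark each TCACGTGA.
MCOLN1: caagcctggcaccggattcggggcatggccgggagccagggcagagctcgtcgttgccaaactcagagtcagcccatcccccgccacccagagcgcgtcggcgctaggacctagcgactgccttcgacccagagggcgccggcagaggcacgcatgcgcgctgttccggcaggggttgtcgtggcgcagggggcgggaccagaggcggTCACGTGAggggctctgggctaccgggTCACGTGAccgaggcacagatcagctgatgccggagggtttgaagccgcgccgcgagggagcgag
LAMP1: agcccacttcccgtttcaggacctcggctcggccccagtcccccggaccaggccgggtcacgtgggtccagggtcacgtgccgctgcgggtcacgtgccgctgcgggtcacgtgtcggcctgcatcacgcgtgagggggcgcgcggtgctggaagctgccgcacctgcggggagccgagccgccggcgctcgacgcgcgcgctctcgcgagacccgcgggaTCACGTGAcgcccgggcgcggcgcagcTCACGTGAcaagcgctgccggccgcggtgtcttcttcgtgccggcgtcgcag
CTSA: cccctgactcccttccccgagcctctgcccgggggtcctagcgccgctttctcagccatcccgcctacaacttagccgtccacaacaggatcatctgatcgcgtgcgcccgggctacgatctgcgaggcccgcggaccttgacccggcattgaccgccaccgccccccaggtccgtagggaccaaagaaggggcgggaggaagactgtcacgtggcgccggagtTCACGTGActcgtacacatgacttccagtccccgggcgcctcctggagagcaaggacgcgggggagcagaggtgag
ATG3: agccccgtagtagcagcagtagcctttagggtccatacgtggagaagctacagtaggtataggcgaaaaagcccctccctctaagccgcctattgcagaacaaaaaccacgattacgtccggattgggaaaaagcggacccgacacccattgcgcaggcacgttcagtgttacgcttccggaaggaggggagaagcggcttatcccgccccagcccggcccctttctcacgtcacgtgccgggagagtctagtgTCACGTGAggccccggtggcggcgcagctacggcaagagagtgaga
ATP6V0D1: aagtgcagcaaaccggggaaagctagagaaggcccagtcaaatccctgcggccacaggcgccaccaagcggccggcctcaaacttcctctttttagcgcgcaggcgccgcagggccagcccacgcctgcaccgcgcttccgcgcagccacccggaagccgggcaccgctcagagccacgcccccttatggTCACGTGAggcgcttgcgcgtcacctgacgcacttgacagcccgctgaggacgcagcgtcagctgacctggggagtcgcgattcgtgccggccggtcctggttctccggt

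The MCOLN1 window lies at chr19:7522374-7522673 on the plus strand, and its copies of the core begin 42 and 15 bases before the gene start. LAMP1 (chr13:113296989-113297288, plus strand) holds copies that begin 29 and 2 bases before its start, and CTSA (chr20:45891085-45891384, plus strand) 1 copy that begins 26 bases before it. These 3 genes rose in DETA/NO libraries, as described by role below. ATG3 (chr3:112561913-112562212, minus strand) holds the core from transcribed base 5 on, and ATP6V0D1 (chr16:67481108-67481407, minus strand) 60 bases before the start, and neither gene passed the test. Among the other pathway genes with the core, NRBF2, GALNS and ATP6V1G1 were called higher. GAA and RRAGB were called lower, and TSC2 and VPS11 did not pass. Of the strongest rises described below, MITF, TFEB, GABARAPL1 and MAP1LC3B hold none of the motifs searched in their windows.

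The shorter E-box core CACGTG, which lies inside TCACGTGA, was present in 9 of the 40 genes (22.5%), against 20 of 111 for the other pathway genes (18.02%), 12.02% of genes tested and 8.77% of the table. Beside the 5 members above these were NEU1 and RRAGC, which rose, ATG14, which did not pass, and CTSD. The related form TCATGTGA and the ATF4 element core TGATGCAA, neither of which contains CACGTG, were found in 0 of the 40 genes, against 8 and 1 of the 111 other pathway genes (7.21% and 0.9%) and 1.24% and 1.08% of the table. No match says only that these letters are not in these windows. A match describes letters in a window and is neither a bound site nor a cause.

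Of the 47 genes, 40 passed the filter of a mean of at least 10 normalized reads and were tested. Of the others, 6 were listed at 0 in every library. These were WIPI1, a phosphoinositide-binding WIPI protein, GABARAPL2, an ATG8 protein, the hydrolases CTSD, GLA and HEXA, and FLCN, which acts on the Rag GTPases. GABARAP, another ATG8 protein, had 2.22 and 2.85 normalized reads in DETA/NO libraries, against 5.73, 4.91 and 0.924 in untreated libraries. The spans of these 7 genes in GENCODE 29 are covered by other genes over 85% to 100% of their length. Across the files, 97.06% of 1835 protein-coding genes whose span lies wholly inside other genes were at 0. Of 1951 such genes with 50% to under 100% of their span overlapped, 19.84% were at 0. With under 50% overlapped it was 7.28% of 15874. CTSD (94.8%), HEXA (99.6%) and GABARAP (85%) belong to the middle class. A listed 0 is therefore given as a listing and not as a level, and levels of different genes are not compared.

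DETA/NO cells had higher values of 17 of the 40 tested members and lower values of 4, and the other 19 did not pass. The genes that rose include the transcription factors MITF and TFEB, the ATG8 genes GABARAPL1 and MAP1LC3B, the receptors OPTN and SQSTM1, the calcium channel gene MCOLN1 and the hydrolase genes CTSZ and NEU1. Those that fell were ATG7, ATP6V1A, ATG4A and ATG10. The test was limma on log2(value + 1) over 16409 genes, with a call at a Benjamini-Hochberg adjusted p under 0.05. As a share of those tested, 42.5% of the members were called higher and 10% lower, beside a background of 21.7% higher (3565 genes) and 21.7% lower (3555 genes) over all genes. Their median log2 fold change was 0.10, and that of all tested genes was -0.00016. In 21 members both DETA/NO values exceeded all 3 untreated values and in 8 both were under all of them, where the background is 30.4% and 30.8% of all tested genes. The changes were small, as were most in the data: 63.9% of all tested genes differed by less than 1.2-fold. Without untreated library 1, the count of higher members was 10 and that of lower members 2. Of all 16409 genes, 3062 were then called higher and 3054 lower. Fewer members, and fewer of all genes, also passed once the shared DETA/NO library was left out, which leaves 1 library in that group. Since RNA of whole cultures was measured, fewer cells of a kind and less RNA per cell cannot be told apart.

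**Figure D1:**
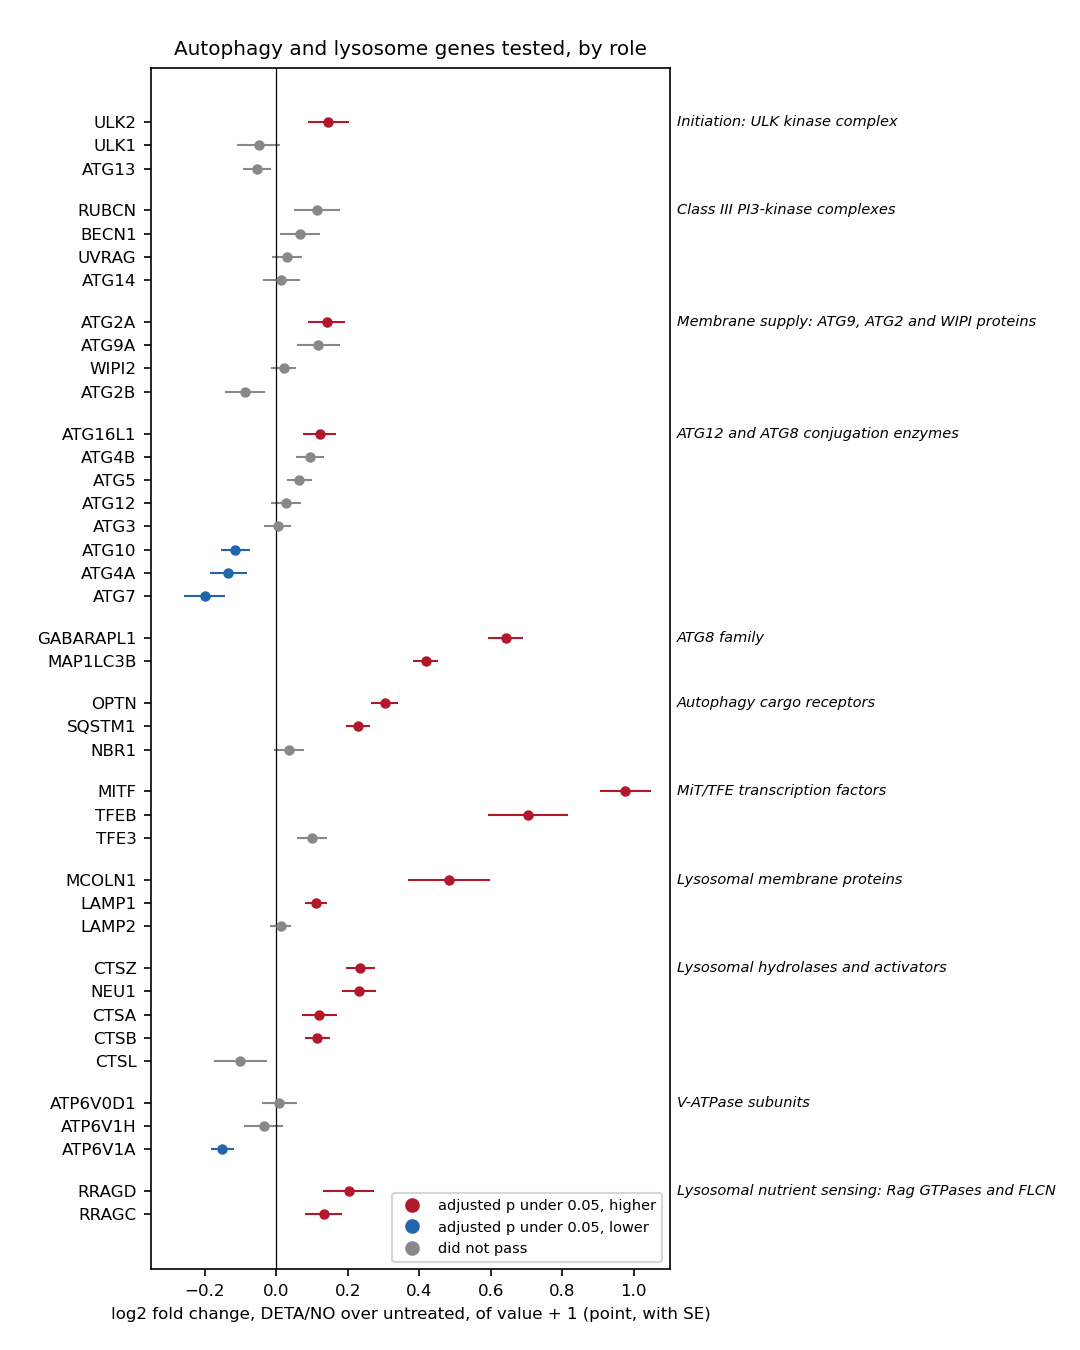
The 40 tested members by role, each as its log2 fold change of value + 1, DETA/NO over untreated, with its standard error on the horizontal axis; red and blue points passed the test at an adjusted p under 0.05. MITF, TFEB and GABARAPL1 stand furthest to the right, ATG7 furthest to the left, and most members lie within 0.2 of 0.

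Of the other 145 genes of these pathways 125 were tested. Of these, 21 were higher (16.8%), 34 were lower (27.2%) and 70 did not pass, and the median log2 fold change was -0.03. In 43 of these 125 genes both DETA/NO values exceeded all untreated values, and in 44 both were under them. The background is 30.4% and 30.8% of all tested genes. The count of higher genes lay between 14 and 23 when single libraries were left out, and that of lower genes between 30 and 34. The difference between the 47 genes and the other genes was not tested. The counts by role below rest on few genes and stand beside 21.7% of all tested genes called in each direction. No role count was tested against that share.

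**Figure D2:**
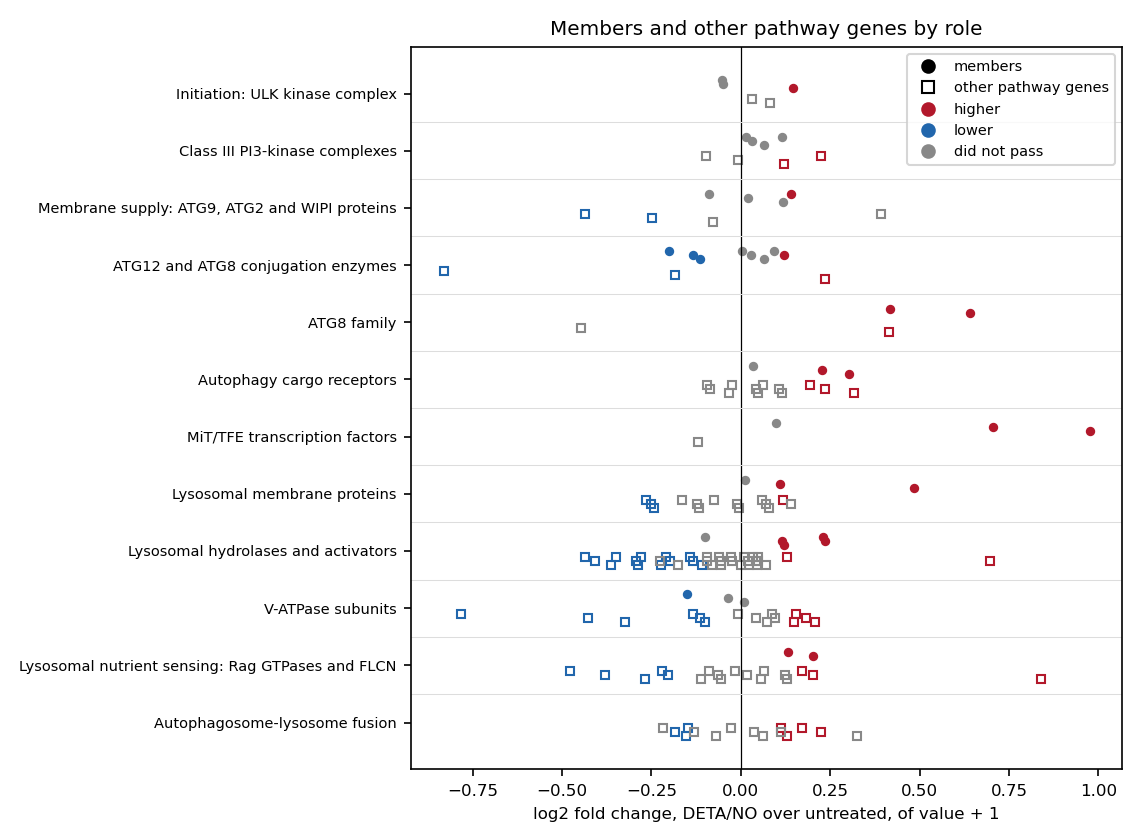
Log2 fold change of value + 1, DETA/NO over untreated, on the horizontal axis for every tested gene in each role on the vertical axis; filled circles are members, open squares the other pathway genes, and colour gives the call. Among hydrolases the member circles lie mostly right of 0 (4 higher, 0 lower of 5), while 13 of the 35 other hydrolase squares are called lower and 2 higher. Among the 4, CTSA and CTSB lost their calls under some alternatives. Over all tested genes 21.7% were called higher and 21.7% lower, and the difference between members and other hydrolases was not tested.

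Of the 3 MiT/TFE genes in the set 2 rose. MITF, best known as the regulator of melanocytes, had 844 and 773 normalized reads in the DETA/NO libraries (library 1 and 2 first, then library 3, here and below), against 428, 401 and 402 in the untreated libraries. Both DETA/NO libraries thus lay far above all untreated libraries, at 1.97-fold, with a log2 fold change, on the scale of value + 1, of 0.98 ± 0.071 (standard error; adjusted p = 6.79e-13). TFEB, the main regulator of lysosomal genes, had 296 and 238 in DETA/NO libraries, against 162, 161 and 164.5 in untreated libraries. The untreated values were nearly equal and the DETA/NO libraries were apart from each other, and the log2 fold change was 0.70 ± 0.112 (adjusted p = 4.72e-06). Other genes overlap 26.1% of the TFEB span. TFE3, a close relative of TFEB, had 2190 and 2101 in DETA/NO libraries, against 1953, 2055 and 2004 in untreated libraries. Its groups did not overlap, but it missed the threshold at a log2 fold change of 0.10 ± 0.042 (adjusted p = 0.0579). TFE3 passed in a fit limited to genes with a mean of at least 50 (adjusted p = 0.0495). The calls of MITF and TFEB held in each of the 17 alternative settings. MITF lies on chromosome 3 at 69739435 to 69968337 and TFEB on chromosome 6 at 41683978 to 41736259 (GRCh38, GENCODE 29). Of the other genes of this role, both named to complete the count, ZKSCAN3, which represses lysosomal genes, did not pass (log2 fold change -0.12), and TFEC lay under the filter.

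Both ATG8 genes that could be tested rose. GABARAPL1, a GABARAP-type ATG8 protein, had 1982 and 1802 normalized reads in DETA/NO libraries, against 1212, 1199.8 and 1221 in untreated libraries. MAP1LC3B, which encodes LC3B, the standard marker of autophagosomes, had 5013 and 4775 in DETA/NO libraries, against 3549, 3700.3 and 3743 in untreated libraries. In both genes the lowest DETA/NO value exceeded the highest untreated value by more than the spread within either group. The log2 fold changes were 0.64 ± 0.049 for GABARAPL1 (1.56-fold; adjusted p = 1.67e-12) and 0.42 ± 0.036 for MAP1LC3B (1.34-fold; adjusted p = 3.19e-11). Other genes overlap 56.5% of the MAP1LC3B span. Of the other family genes, MAP1LC3B2 was higher by 0.41, but it is a near-identical copy of MAP1LC3B, and reads of the pair may have been split. MAP1LC3A, named to complete the family after its values were seen, had 29.9 and 28.5 in DETA/NO libraries, against 45.9, 40.2 and 35.1 in untreated libraries, and did not pass (log2 fold change -0.45, adjusted p = 0.122). The GABARAPL1 gene lies on chromosome 12 at 10212458 to 10223130 and MAP1LC3B on chromosome 16 at 87383995 to 87404779.

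**Figure D3:**
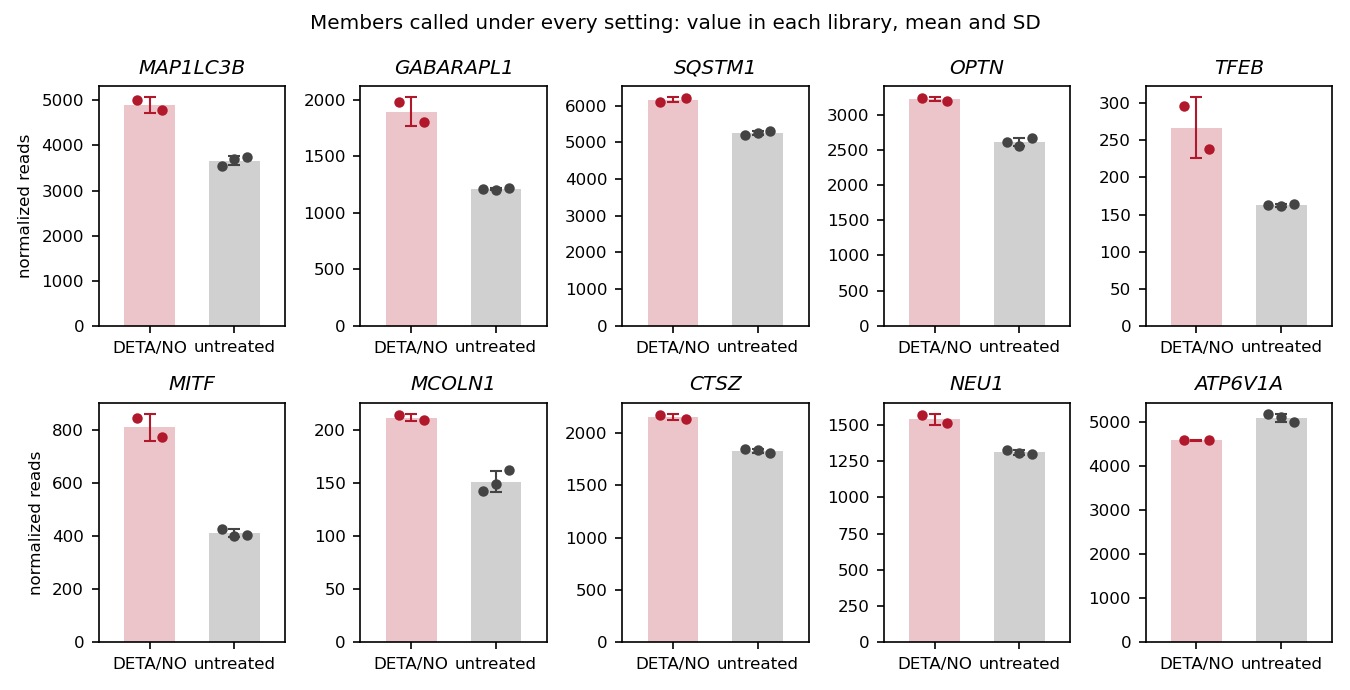
Normalized reads of the 10 members that were called under every setting, with DETA/NO libraries left (2 points) and untreated libraries right (3 points); bars are means and whiskers the SD, and each vertical axis starts at 0. In each panel the points of the groups do not overlap: 9 genes are higher in DETA/NO cells, and ATP6V1A is lower. The lack of overlap largely follows from choosing genes by their calls. Over all tested genes, 30.4% had both DETA/NO values above every untreated value and 30.8% had both below.

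Of 3 cargo receptor genes in the set 2 rose. OPTN encodes optineurin, a receptor for mitochondria and bacteria, and had 3236 and 3198 normalized reads in DETA/NO libraries, against 2608, 2552 and 2664 in untreated libraries. SQSTM1 encodes p62, which links ubiquitinated cargo to ATG8 proteins, and had 6107 and 6202 in DETA/NO libraries, against 5193, 5253 and 5312 in untreated libraries. Their groups did not overlap, with log2 fold changes of 0.30 ± 0.038 (adjusted p = 6.73e-08) and 0.23 ± 0.032 (adjusted p = 6.67e-07). NBR1, a relative of p62, was split, with 3150.2 and 2806 in DETA/NO libraries on both sides of 2894, 2906 and 2906 in untreated libraries. It did not pass, although without DETA/NO library 3 its adjusted p was 0.0463. Of 12 other receptor genes tested, 3 were higher and 0 lower, namely the mitophagy receptors BNIP3 (log2 fold change 0.32) and BCL2L13 (0.24) and the ubiquitin-binding TAX1BP1 (0.19).

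Of the 3 initiation genes 1 passed the test. ULK2, one of the kinases that start autophagy, had 934 and 884 normalized reads in DETA/NO libraries, against 802, 823 and 840.1 in untreated libraries. Its rise on the log2 scale was 0.15 ± 0.058 (adjusted p = 0.0412), but the adjusted p was 0.124, 0.0861 and 0.29 without untreated library 1, untreated library 2 and DETA/NO library 1 and 2. The ULK2 call was lost in 10 of the 17 alternatives. ULK1, the other kinase, had 766 and 766 in DETA/NO libraries, against 770.3, 775 and 835 in untreated libraries, and ATG13, its scaffold partner, had a log2 fold change of -0.05. Neither passed, nor did the other genes of the complex, RB1CC1 and ATG101.

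None of the 4 class III PI3-kinase members passed the test. Their log2 fold changes were 0.11 for RUBCN, an inhibitor of the complex, 0.07 for the scaffold BECN1, 0.03 for UVRAG and 0.01 for ATG14. Of these RUBCN alone had groups that did not overlap, with 690.3 and 662 normalized reads in DETA/NO libraries, against 626, 636 and 611 in untreated libraries. Of the 4 other genes of the complexes NRBF2, a subunit that binds ATG14, was higher (0.22; adjusted p = 0.00322), and so was AMBRA1 (0.12; adjusted p = 0.0176). Without DETA/NO library 1 and 2 both calls were lost (adjusted p of 0.0794 and 0.0969), and AMBRA1 also lost its call on leaving out untreated library 1, untreated library 2 or DETA/NO library 3 (0.0969, 0.0623 and 0.0512).

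In the membrane supply role, ATG2A, a lipid transfer protein, had 1359 and 1350.3 normalized reads in DETA/NO libraries, against 1197, 1178 and 1315 in untreated libraries. Untreated library 3 lay close to the DETA/NO libraries, and the log2 fold change of 0.14 ± 0.052 (adjusted p = 0.0287) lost its call on leaving out untreated library 1 (0.111), untreated library 2 (0.146), the shared DETA/NO library (0.107) or DETA/NO library 3 (0.08), and in 8 of the 17 alternatives in all. Its paralog ATG2B had a log2 fold change of -0.09, the scramblase ATG9A one of 0.12 and WIPI2, which recruits the conjugation complex, one of 0.02, and none of these passed. The other genes of this role gave 2 falls. VMP1, a scramblase of the endoplasmic reticulum, had 3900.4 and 4210.4 in DETA/NO libraries, against 5451, 5563 and 5432 in untreated libraries, a log2 fold change of -0.44 ± 0.035 (adjusted p = 8.15e-12). TMEM41B, which works with VMP1, had a log2 fold change of -0.25 ± 0.042. Both kept their calls under every alternative.

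Of the 8 conjugation genes tested 3 were lower and 1 was higher. ATG7, the E1-like enzyme of both conjugation branches, had 951 and 1089 normalized reads in DETA/NO libraries, against 1151, 1209 and 1149.7 in untreated libraries. ATG10, the E2-like enzyme for ATG12, had 1977 and 2029 in DETA/NO libraries, against 2192, 2137 and 2177 in untreated libraries. ATG4A, a protease that trims ATG8 proteins, had 1154 and 1268 in DETA/NO libraries, against 1319.8, 1359.7 and 1302 in untreated libraries. In all 3 the DETA/NO libraries lay below the untreated ones, and in each DETA/NO library 1 and 2 was the lower. The log2 fold changes were -0.20 ± 0.057 for ATG7 (adjusted p = 0.00457), -0.11 ± 0.041 for ATG10 (adjusted p = 0.0228) and -0.13 ± 0.051 for ATG4A (adjusted p = 0.0339). Without DETA/NO library 1 and 2 the 3 calls were lost, with adjusted p of 0.242, 0.162 and 0.452. ATG10 and ATG4A also lost theirs without untreated library 1 (0.0781 and 0.0702), and ATG4A without untreated library 2 (0.13). ATG7 kept its call in 15 of the 17 alternatives, ATG10 in 12 and ATG4A in 10.

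ATG16L1, which places the conjugation complex on the membrane, had 1564 and 1606 normalized reads in DETA/NO libraries, against 1415, 1458 and 1496 in untreated libraries. Its rise on the log2 scale was 0.12 ± 0.046 (adjusted p = 0.0334), and the call was lost in 11 of the 17 alternatives, among them when untreated library 1 (0.13), untreated library 2 (0.0769), DETA/NO library 1 and 2 (0.0613) or DETA/NO library 3 (0.183) was left out. ATG4B, ATG5, ATG12 and ATG3 had log2 fold changes of 0.09, 0.06, 0.03 and 0.004 and did not pass. ATG4B came nearest at an adjusted p of 0.0533, which was 0.0249 without untreated library 3, 0.0449 with only genes of a mean of at least 50 and 0.0468 in edgeR. All 3 other genes of this role were called in every setting. ATG16L2, the paralog of ATG16L1, had 511 and 455 in DETA/NO libraries, against 882, 805 and 890 in untreated libraries, a log2 fold change of -0.83 ± 0.068 (adjusted p = 8.67e-12). ATG4C and ATG4D, proteases like ATG4A, had log2 fold changes of -0.18 and 0.24.

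Lysosomal membrane proteins in the set were LAMP1, LAMP2 and MCOLN1, and 2 of them rose. MCOLN1, the calcium channel of the lysosome, had 214 and 209 normalized reads in DETA/NO libraries, against 142, 149 and 162 in untreated libraries. Both DETA/NO values were above every untreated value, at 1.40-fold and a log2 fold change of 0.48 ± 0.114 (adjusted p = 8.48e-04). LAMP1, a main glycoprotein of the membrane, had 11543 and 11724 in DETA/NO libraries, against 10590, 11036 and 10700 in untreated libraries. That difference was small beside its level, a log2 fold change of 0.11 ± 0.030 (adjusted p = 0.00305), and the call was lost in limma without the trend and robust options (0.106) and with a replicate block that numbers the shared library 2 (0.0715). LAMP2, the partner of LAMP1, had a log2 fold change of 0.01 and did not pass. Of 14 other membrane genes 1 was higher, CD63 (0.12), which lost its call without DETA/NO library 1 and 2 (0.0655). The 3 that fell were LAPTM4A (log2 fold change -0.26) and LAPTM4B (-0.24), transmembrane proteins of late endosomes and lysosomes, and HGSNAT (-0.25), an enzyme of heparan sulfate breakdown.

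Of the 5 hydrolase members tested, 4 were higher and 0 lower. CTSZ, a carboxypeptidase of the cathepsin family, had 2174 and 2136 normalized reads in DETA/NO libraries, against 1846, 1838 and 1808 in untreated libraries. NEU1, the lysosomal sialidase, had 1565 and 1513 in DETA/NO libraries, against 1328, 1306 and 1299 in untreated libraries. These genes had log2 fold changes of 0.24 ± 0.042 (adjusted p = 2.41e-05) and 0.23 ± 0.047 (adjusted p = 1.56e-04), with groups well apart. CTSA, which holds NEU1 in a complex, had 1499 and 1385 in DETA/NO libraries, against 1288, 1345 and 1344 in untreated libraries. CTSB, cathepsin B, had 7236 and 7335 in DETA/NO libraries, against 6532, 6600.1 and 7061 in untreated libraries. The gaps of these 2 genes were narrow, with log2 fold changes of 0.12 ± 0.049 (adjusted p = 0.0485) and 0.11 ± 0.034 (adjusted p = 0.00643). Without untreated library 1 both calls were lost (0.167 and 0.0702), so that 2 of the 5 members were then higher. CTSA also lost its call when untreated library 2 (0.0763) or the shared DETA/NO library (0.473) was left out, and CTSB when DETA/NO library 3 was (0.0517). Of the 17 alternatives CTSA lost its call in 12 and CTSB in 4. CTSL, cathepsin L, had 465 and 471 in DETA/NO libraries, against 471, 504 and 532 in untreated libraries, and did not pass.

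The other 35 hydrolases and activators tested gave 2 higher and 13 lower genes, and the lower count lay between 10 and 13 when single libraries were left out. CTSV, a cathepsin related to CTSL, had 854 and 937 normalized reads in DETA/NO libraries, against 554, 555 and 545 in untreated libraries, a log2 fold change of 0.70 ± 0.065 (adjusted p = 1.55e-10). GALNS, a sulfatase, was the other higher gene (0.13; adjusted p = 0.0461), and it lost its call on leaving out any library but untreated library 3 (0.0959 to 0.18). Of the lower genes the cathepsins CTSO and CTSH had log2 fold changes of -0.44 and -0.41 and SGSH, a sulfamidase of heparan sulfate breakdown, one of -0.36. CTSH had 1944 and 1966 in DETA/NO libraries, against 2515, 2596 and 2664 in untreated libraries, without overlap. The difference in counts between the members and the other genes of this role was not tested.

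Of 3 V-ATPase members 1 passed. ATP6V1A, the catalytic subunit of the pump, had 4582 and 4588 normalized reads in DETA/NO libraries, against 5177, 5103 and 4992 in untreated libraries. It was lower in both DETA/NO libraries, by a log2 fold change of -0.15 ± 0.033 (adjusted p = 4.02e-04), under every alternative. ATP6V0D1 and ATP6V1H, subunits of the membrane and the cytoplasmic sector, had log2 fold changes of 0.01 and -0.03 and did not pass. Of 15 other subunits 4 were higher and 6 lower. The lower ones include ATP6V0A4, a membrane subunit best known from kidney, with 2676 and 2799 in DETA/NO libraries, against 4467, 4871 and 4810.4 in untreated libraries (log2 fold change -0.78 ± 0.039; adjusted p = 9.52e-17). ATP6V0E2 (-0.43) and ATP6V1C2 (-0.32) fell too, and both calls were lost without DETA/NO library 1 and 2 (0.0875 and 0.139), ATP6V0E2 also without untreated library 1 (0.0699) and ATP6V1C2 without untreated library 2 (0.0513). Among the higher ones ATP6V0A2, another form of the subunit of ATP6V0A4, rose by 0.21, ATP6V1E1 by 0.18 and ATP6V1G1 by 0.15, of which ATP6V1G1 lost its call when untreated library 2 (0.0582) or DETA/NO library 3 (0.294) was left out. ATP6V1D, named only to complete the count, rose by 0.15 and lost its call without DETA/NO library 3 (0.0671). The higher count was 2 without DETA/NO library 3, and the lower count was 3, 3 and 2 without untreated library 1, untreated library 2 and DETA/NO library 1 and 2.

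Both Rag GTPases in the set rose. RRAGD had 544 and 533 normalized reads in DETA/NO libraries, against 456, 471 and 477 in untreated libraries, and RRAGC had 1263 and 1235 in DETA/NO libraries, against 1136, 1181 and 1101 in untreated libraries. RagC and RagD are the alternative partners that pair with RagA or RagB on the lysosome. The groups did not overlap, with log2 fold changes of 0.20 ± 0.072 for RRAGD (adjusted p = 0.0221) and 0.13 ± 0.051 for RRAGC (adjusted p = 0.0354). Neither call was firm. RRAGD missed the threshold on leaving out untreated library 1 (0.0709), the shared DETA/NO library 1 and 2 (0.118) or DETA/NO library 3 (0.0607). RRAGC missed it on leaving out untreated library 1 (0.0799), untreated library 3 (0.0946), the shared DETA/NO library 1 and 2 (0.178) or DETA/NO library 3 (0.0693), and other genes overlap 94.8% of its span. Of the 17 alternatives RRAGD lost its call in 5 and RRAGC in 9.

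The RagA and RagB genes moved the other way, and are named here after their values were seen. RRAGA had 961 and 1043 normalized reads in DETA/NO libraries, against 1167, 1155 and 1138 in untreated libraries, and RRAGB had 1103 and 1084 in DETA/NO libraries, against 1317, 1263 and 1242 in untreated libraries. Their log2 fold changes were -0.20 ± 0.053 (adjusted p = 0.00222) and -0.22 ± 0.050 (adjusted p = 6.28e-04). RRAGB kept its call under every alternative, and RRAGA lost it without DETA/NO library 1 and 2 (adjusted p = 0.083). In all, 3 of 18 other nutrient-sensing genes were higher and 5 lower. SESN2, a stress-induced inhibitor of the pathway, had 1053 and 932 in DETA/NO libraries, against 505, 539.5 and 622 in untreated libraries, a log2 fold change of 0.84 ± 0.078 (adjusted p = 7.79e-09). RPTOR, a subunit of mTORC1, rose by 0.20, and NPRL3 by 0.17, though the NPRL3 call was lost on leaving out untreated library 1 (0.143), untreated library 2 (0.163) or DETA/NO library 3 (0.298). LAMTOR2, which anchors the Rag proteins, had a log2 fold change of -0.48, TBC1D7, a subunit of the TSC complex, one of -0.38 and SESN1 one of -0.27.

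The set holds no gene of autophagosome-lysosome fusion, so 15 other genes were read for that step. Of these 4 were higher, namely PLEKHM1 (log2 fold change 0.23), VPS18 (0.17), SNAP29 (0.13) and, named only to complete the count, YKT6 (0.11), and 3 lower, namely the autophagosomal SNARE STX17 (-0.18), the tether subunit VPS41 (-0.15) and the SNARE VAMP8 (-0.15). On leaving out untreated library 2, DETA/NO library 1 and 2 or DETA/NO library 3, the higher count was 1, 1 and 2. PLEKHM1 lost its call without untreated library 2 (0.0825) or the shared DETA/NO library (0.0737), and YKT6 without the shared DETA/NO library (0.123). VPS18 lost its call on leaving out untreated library 1 (0.0907), untreated library 2 (0.149) or DETA/NO library 3 (0.265), and SNAP29 on leaving out any library but untreated library 1 (0.0607 to 0.147). STX17, VPS41 and VAMP8 kept their calls when single libraries were left out. In limma without the trend and robust options no gene of this step was called. The adjusted p there was 0.0549 to 0.0728 for the lower genes and 0.107 to 0.156 for the higher genes.

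The DETA/NO libraries differed in how far they stood from the untreated mean. Over all tested genes, log2 values of library 1 and 2 correlated slightly less with untreated libraries (0.9854 to 0.9859) than those of library 3 (0.9872 to 0.9875). Of the 17 higher members DETA/NO library 1 and 2 was further away in 13 and library 3 in 4, with median differences of 0.22 and 0.21 on the log2 scale. For TFEB these were 0.86 and 0.55, for GABARAPL1 0.71 and 0.57, and for MITF 1.04 and 0.91. All 4 lower members were further away in library 1 and 2, with median differences of -0.18 and -0.10. The share of all tested genes further away in library 1 and 2 was not counted. The counts are therefore not read as particular to the members. Both libraries lay on the same side of the untreated mean in all 21 called members, which a call with 2 DETA/NO libraries nearly requires.

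**Figure D4:**
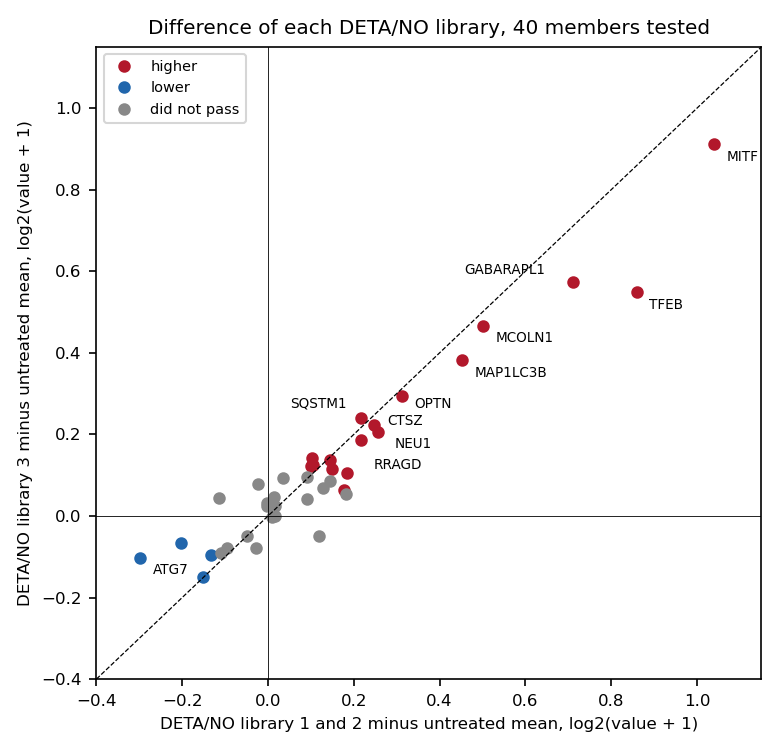
Each tested member as the difference from the untreated mean, in log2(value + 1), of DETA/NO library 1 and 2 (horizontal) and DETA/NO library 3 (vertical); the dashed line marks equal differences, and genes with a log2 fold change of at least 0.2 in size are named. TFEB (0.86 and 0.55) and ATG7 lie furthest from the line among the named genes, and SQSTM1 lies above it.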

How the data were processed

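RNA-seq of 6 samples was deposited as 1 table per sample, with 1 normalized read count (a signal, not whole reads) for each of 45019 rows. Per the submitters' processing notes, the authors used TopHat2 2.1.1 and Bowtie2 2.5.0.0, featureCounts 2.0.3 of Subread, deepTools 3.5.1, quality reports from FastQC 0.11.9 and MultiQC 1.14, and DESeq2 1.38.3 in R 4.2.2, on GRCh38. The annotation and the strand setting of the counting are not given in the sources used here. Of the values above 0, 100% per library were whole multiples of the worth of 1 read (tolerance 0.01), which gave the recovered reads. Sample titles gave the groups. DETA/NO replicates 1 and 2 had identical files with the same header, which were used once. In each file 27 names had become dates. These rows held 0.246% of reads and were tested but not named.

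Genes with a mean of at least 10 over the 5 libraries were tested with limma 3.58.1 in R 4.3.3 (mean-variance trend, robust eBayes) on log2(value + 1), a scale that understates the change of low genes, with Benjamini-Hochberg adjustment over all 16409 genes. Alternatives were other pseudocounts, filters and scalings, limma without trend and robust options, edgeR 4.0.16 (quasi-likelihood) and DESeq2 1.42.0 on recovered reads, leaving out single libraries, and a replicate block. A block that gives the shared library the number 2, as its header reads, was chosen after seeing the data. The fit was tested on simulated counts of all 16409 genes in this comparison, in which it called 25 of 50 genes set to 1.2-fold, 34 of 50 set to 1.5-fold, 46 of 50 set to 2-fold and all 50 set to 4-fold. Of its 161 calls there, 6 were false. Only the genes so set were changed, a far smaller share than was called in the data. The rates in the real fit may therefore differ.

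The members and gene lists were chosen with earlier results of these data known. Every member is accounted for. Other pathway genes were named by a rule: per role, up to 3 rising and 3 falling called genes with the largest fold changes and, in the higher group, a mean of 100 or more. Outside it, RRAGA, RRAGB, ATP6V1D, YKT6, MAP1LC3A, ZKSCAN3, TFEC, RB1CC1, ATG101, GAA, TSC2 and VPS11 were named after their values were seen. All 192 genes matched GENCODE 29. Motifs were searched in RefSeq promoter windows with Python 3.11.15, pandas 2.3.3 and numpy 2.4.6, and figures were drawn with matplotlib 3.10.9.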

Additional observations from a re-analysis of the deposited data

How the results depend on the processing

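No call of the 40 members tested or of the other genes named by the rule turned round under any of the 17 alternatives. The same held for RRAGA, RRAGB, ATP6V1D and YKT6. MAP1LC3A, ZKSCAN3, RB1CC1, ATG101, GAA, TSC2 and VPS11 were not followed gene by gene through the alternatives. Of the 21 members called, 10 were called under all of them and 11 lost the call under at least 1. The count of higher members, 17, was 10 in limma without the trend and robust options, 11 in DESeq2, and 10 to 17 without single libraries. That of lower members, 4, was 1, 2 and 1 to 4 in the same order. Other pathway genes gave 10 higher in limma without these options (main count 21) and 14 to 23 higher and 30 to 34 lower without single libraries. Over all genes, limma without these options called 2262 higher and 2497 lower, and leaving out single libraries gave 2795 to 3552 higher and 2801 to 3502 lower. Leaving out a DETA/NO library leaves 1 in that group, which is then assumed to vary like the untreated libraries. DESeq2 called 2786 of all 16409 genes higher and 2556 lower. A replicate block called 3320 of them higher and 3285 lower with the shared library as number 1. With the shared library as number 2 these counts were 3143 and 3178. Of the 40 members tested, the block called 14 higher and 3 lower with that library as number 1. It called 9 higher and 2 lower with it as number 2. The numbers did not pair the samples by the labels, and with only 2 DETA/NO libraries the correlations of deviations between them and the untreated libraries lay between -0.030 and 0.030. Other scalings moved the median log2 fold change of all genes to between -0.0102 and -0.0034. At this depth and number of libraries, many changes of 1.2-fold or less could be missed, and larger ones too. In the simulated counts 34 of 50 genes set to 1.5-fold and 46 of 50 set to 2-fold were called.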
